A study of Mus musculus with 12 samples.

Results

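The chemokine system was read here from the 61 genes, of 24421 in each deposited table, whose symbol begins with Ccl, Cxcl, Cx3cl, Xcl, Ccr, Cxcr, Xcr or Ackr followed by a digit. They are 39 ligands (24 CC, 13 CXC, Cx3cl1 and Xcl1) and 22 receptors (11 CC, 6 CXC, Xcr1 and 4 atypical receptors). The rule reads only names. RNA sequencing of bulk mouse tissue gave 12 libraries in 4 groups of 3. Cortex libraries came from wild-type, non-tumour cortex. Control tumours were ependymomas that carried ZFTA-RELA, a fusion protein that drives a type of supratentorial ependymoma. ETV5 tumours carried the same fusion and overexpressed a human variant of ETV5, an ETS transcription factor, and NPY tumours carried the fusion and overexpressed a human variant of the neuropeptide Y precursor. The labels name no strain, age, sex, promoter or way of delivering the fusion. They do not say whether replicates were separate animals, so p-values measure only the spread between these samples, which may be technical. Both added genes are human and the tables count mouse genes, so the overexpression labels could not be checked in this way.

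Chemokines are small secreted proteins that draw leukocytes along gradients through G protein-coupled receptors, and they are grouped by the spacing of their first cysteines into CC, CXC, CX3C and XC families. Inflammatory chemokines are induced at sites of infection, injury or tumour growth and recruit monocytes, neutrophils and lymphocytes, whereas homeostatic chemokines are made constantly and place cells within tissues. Atypical receptors bind chemokines without activating G proteins and take them up or carry them across endothelium. In healthy brain the best known axes are neuronal Cx3cl1 with microglial Cx3cr1, and Cxcl12 with Cxcr4 and Ackr3.

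Levels are given as CPM, which are a gene's reads scaled to a common total of reads per library, with the mean ± SD over n = 3 libraries. Levels of different genes are compared only as CPM per kb, which are CPM divided by the length of the gene's merged exons in the GENCODE M21 annotation of build mm10 (GRCm38), where 60 of the 61 members were found. Differences are log2 fold changes on the scale of log2(deposited value + 1), which understates the change of low genes. They come from limma with their standard error (SE) and a two-sided p-value that was adjusted by the Benjamini-Hochberg method over all genes tested, and a gene was called at an adjusted p under 0.05. The library totals lay between 5962376 and 7444467 reads (cortex), 6266613 and 9443466 (control), 6691146 and 11291057 (ETV5), and 8214523 and 10481943 (NPY). The sum of 7 neuronal markers was 5926, 6368 and 5793 CPM over the cortex libraries and 304, 334 and 837 in control tumours. The sum of 9 genes tied to ZFTA-RELA tumours was 487, 446 and 431 CPM in cortex and 6877, 9873 and 7528 in control tumours. Igf2 alone gave 3525, 6444 and 3822 CPM of the control sums. Of the 9 genes 8 were called higher in control tumours and 1, L1cam, was called lower (log2 fold change -3.84, SE 0.27, adjusted p = 4.95e-06 by limma). Library codes begin with DS in cortex, control tumours and ETV5 replicates 1 and 2, and with EC in ETV5 replicate 3 and all 3 NPY libraries.

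Most of the chemokine system was low in cortex and measurable in tumours. Of the 61 members, 32 reached a mean of 5 CPM in at least 1 group: 8 did so in cortex, and 30 did so in each of the control, ETV5 and NPY tumours. A further 15 peaked between 1 and 5 CPM, 9 stayed under 1 CPM in each group, and 5 had 0 reads in all 12 libraries. Those 5 were Ccl21a, Ccl21b, Ccl21c, Ccl26 and Ccl27b. Of the 50-base stretches in their exons, 71.6% in Ccl21a, 100% in Ccl21b and 98.1% in Ccl27b also occur in other annotated genes, so a counter that drops reads with several positions would give 0 for these. Ccl26 shares none, and Ccl21c was not found in the annotation. In cortex 17 members had 0 reads in all 3 libraries, against 5 in control tumours. A count of 0 allows up to 3 reads, by counting error alone.

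**Figure D1:**
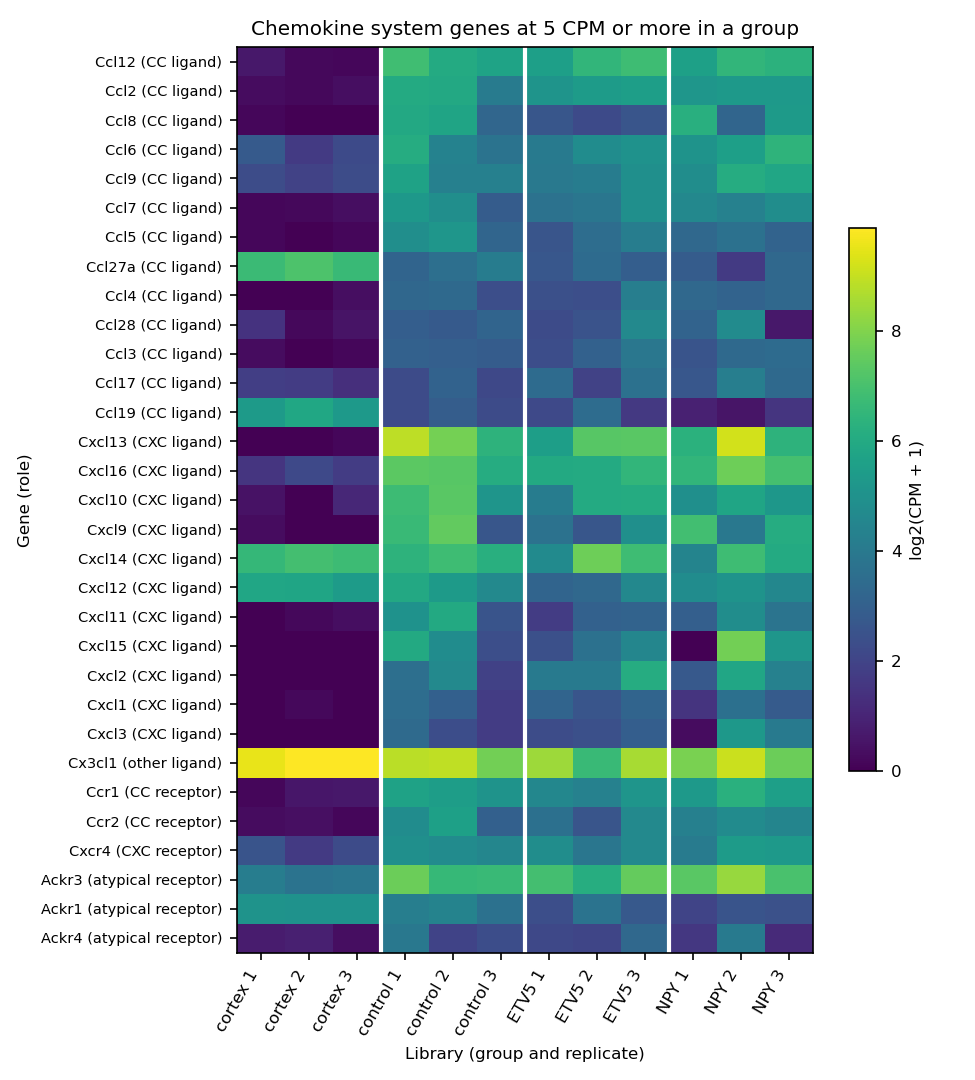
Level of 31 of the 32 members with a mean of at least 5 CPM in at least 1 group (one row per gene, with its role), in each of the 12 libraries (columns), as log2(CPM + 1) by colour. Cortex is dark for the inflammatory ligands and bright for Cx3cl1, Cxcl14, Ccl27a and Ccl19, while the tumour columns are bright for Cxcl13, Ccl12, Cxcl16 and Ackr3.

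In cortex the ligand with the highest level per length was Cx3cl1, a membrane-bound chemokine of neurons, at 219 ± 27.7 CPM per kb. It lay above Cxcl14 (58.8 ± 7.41), Ccl19 (52.8 ± 12.5) and Ccl27a (48.1 ± 8.56), whose libraries overlapped in that order. Cxcl12 followed at 6.19 ± 1.01 CPM per kb. Receptors were ranked among the members only, so Cx3cr1, which the name pattern misses, has no place in the order. Among the receptor members Ackr1 led at 22.7 ± 0.214 CPM per kb, above Ackr3 (4.29 ± 0.749) and Cxcr4 (1.99 ± 0.739). The order was different in control tumours. Cxcl13 stood at 224 ± 171, Ccl12 at 141 ± 59.5, Cx3cl1 at 97.9 ± 37.6 and Ccl8 at 80.6 ± 56 CPM per kb, with overlapping libraries at each step. Ackr3 was the leading receptor member at 39.7 ± 17 CPM per kb, above Ccr1 (15 ± 3.24), Cxcr4 (14.3 ± 1.98) and Ackr1 (11.8 ± 2.94), which overlapped in turn. Ackr3 also led, with no overlap with the next gene, in ETV5 tumours (37.5 ± 17.3) and NPY tumours (60.8 ± 30.7).

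Control tumours were set against cortex to ask how the chemokine system of the tumour differs from that of the tissue it replaces. Of the 61 members, 35 passed the filter on low reads, 26 of them higher, 5 lower and 4 not called. Among all 14621 genes tested 72.0% were called, 35.7% higher and 36.2% lower. The control and cortex libraries did not overlap for 27 members with control tumours higher and 5 with control tumours lower. Over all genes this was so for 6401 and 4909, so a lack of overlap was common in this comparison. However, 20 of the 35 members passed the filter only through the tumour libraries and so had to differ. They were the ligands Ccl2, Ccl3, Ccl4, Ccl5, Ccl7, Ccl8, Ccl12, Ccl28, Cxcl1, Cxcl2, Cxcl3, Cxcl5, Cxcl9, Cxcl10, Cxcl11, Cxcl13 and Cxcl15, and the receptors Ccr1, Ccr2 and Ackr4. For these 20 the calls and adjusted p-values against cortex that follow describe the size of the gap and are no separate support for it. The other 15 passed on their cortex reads alone, and of these 6 were higher (among them Ackr3, Ccl6, Ccl9, Cxcl16 and Cxcr4), 5 were lower (Ackr1, Ccl19, Ccl25, Ccl27a and Cx3cl1) and 4 were not called (Ackr2, Ccl17, Cxcl12 and Cxcl14). That is 11 of 15 called, near the share of all genes. The median log2 fold change of the 35 was 4.76, the same with the 3 members that had 0 cortex reads set at their lower bound, against -0.00 over all genes. It is no support for a direction of the family, since it includes those 20. The 31 calls held without each library in turn. Without control replicate 3 the fold was over 1.5 times larger for 12 members (Ccl2, Ccl5, Ccl7, Ccl8, Ccr2, Cxcl1, Cxcl2, Cxcl9, Cxcl10, Cxcl11, Cxcl13 and Cxcl15, log2 fold changes 5.62 to 10.88), and it was over 1.5 times smaller without control replicate 1 for Ackr4, Ccl6, Cxcl13 and Cxcl15 (1.91 to 9.59) and without control replicate 2 for Ccr2, Cxcl2, Cxcl9 and Cxcl11 (5.10 to 6.86). Among the cortex libraries, leaving out replicate 1 made the fold of Ccl28 larger (log2 fold change 3.97) and that of Cxcl5 smaller (2.08), leaving out replicate 2 made those of Ccl28 (2.65) and Cxcl10 (6.57) smaller, and leaving out replicate 3 made that of Cxcl10 larger (8.25), each by over 1.5 times.

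**Figure D2:**
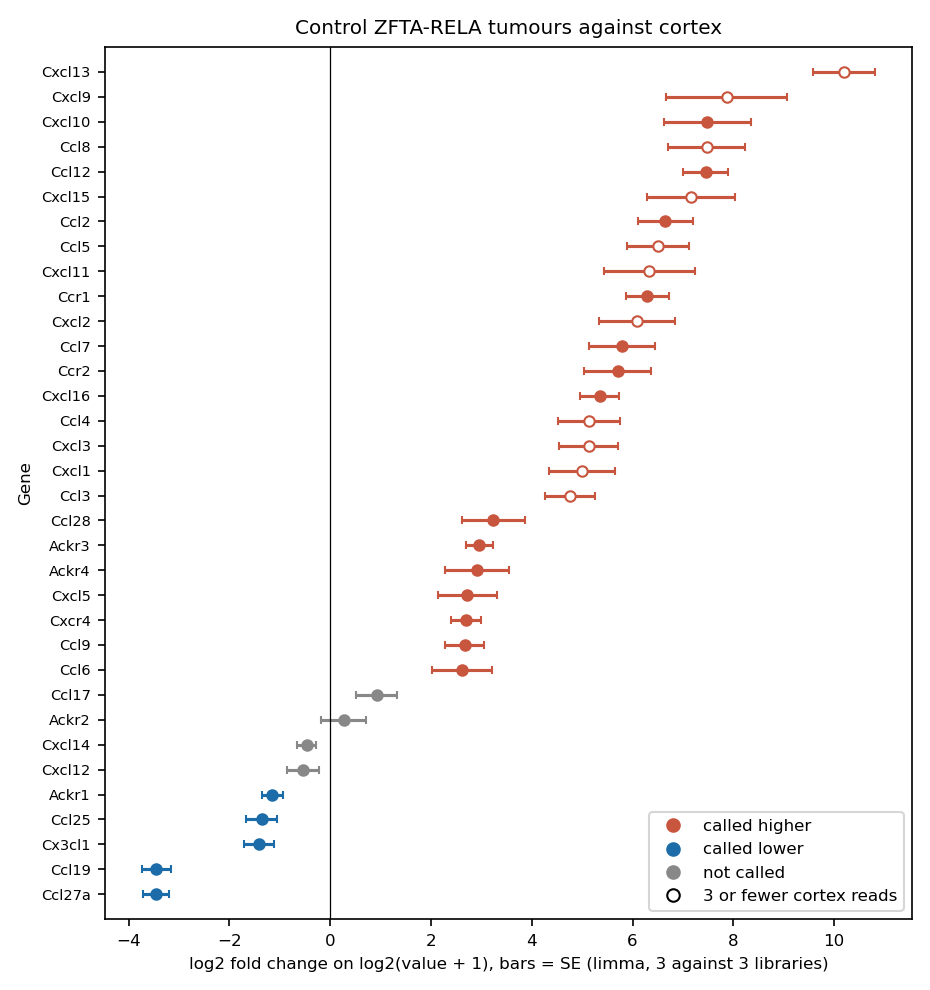
Log2 fold change of control tumours against cortex on log2(value + 1) (horizontal axis, bars are SE) for 34 of the 35 tested members (vertical axis), called higher in red, called lower in blue and not called in grey. Open circles mark members with 3 or fewer cortex reads, whose fitted value depends on the added 1; Cxcl13 lies farthest right at 10.19 and Ccl27a farthest left at -3.47.

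Most markers of myeloid cells that could be tested were higher beside these ligands and receptors. All 12 microglia and macrophage markers were called higher in control tumours, and their sum was 431, 506 and 476 CPM in the cortex libraries against 6365, 4657 and 3018 in the control libraries. Of 7 markers of homeostatic microglia, however, 4 were higher and 2 were lower, namely P2ry12 (log2 fold change -0.90, SE 0.16, adjusted p = 0.000884) and Siglech (log2 fold change -1.89, SE 0.48, adjusted p = 0.00713). Of 6 monocyte markers 5 were tested and all 5 were higher. One of them, Plac8 (0, 0 and 0.139 CPM in cortex), passed the filter only through the tumour libraries and so had to differ. Neutrophil markers, of which 5 of 6 were in the tables (Ly6g was not), summed to 9.40, 8.39 and 6.68 CPM in cortex against 69.6, 76.5 and 38 in control tumours. Most of both sums was Csf3r, the one tested, which was higher, at 8.60, 6.71 and 6.68 CPM and then 63, 69.8 and 35.9. The 8 T cell markers summed to 5.51, 5.53 and 22.8 CPM in cortex against 21, 30.1 and 7.02 in control tumours. In cortex replicate 3 Cd4 alone gave 19.2 of the 22.8 CPM. Cd3e, Cd3g, Cd8b1 and Cd2 had 0 reads in cortex, and 0 of 2 tested T cell markers were called. The 5 NK cell markers summed to 0.269, 0.503 and 0.696 CPM in cortex against 14.2, 17.5 and 2.07 in control tumours, with Ncr1, Prf1 and Nkg7 at 0 in cortex. The 1 tested, Klrb1c, was higher, but it too passed the filter only through the tumour libraries. Neuronal markers were lower, 7 of 7. In bulk tissue fewer cells of a type and less RNA per cell cannot be told apart, and the part of any cell type in the results that follow was not tested.

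The CC ligands that draw monocytes were at or near 0 in cortex and well above it in each control tumour. Ccl12 (chromosome 11, 82101845 to 82103400, plus strand), a mouse monocyte chemoattractant, stood at 0.537, 0.168 and 0.139 CPM in cortex against 112, 63.6 and 51.7 in control tumours. Every control library lay far above every cortex library (log2 fold change 7.45, SE 0.44, adjusted p = 2.22e-06). Ccl2 (chromosome 11, 82035571 to 82037453, plus strand), the main ligand of CCR2, stood at 0.269, 0.168 and 0.278 CPM across cortex and 64.4, 61.4 and 16.1 in the control libraries, where replicate 3 was the lowest. It too was higher without overlap (log2 fold change 6.65, SE 0.54, adjusted p = 1.07e-05). Its neighbour Ccl7, another CCR2 ligand, showed the same order of control libraries, at 0.134, 0.168 and 0.278 CPM (cortex) and 37.5, 28.3 and 6.38 CPM (control tumours) (log2 fold change 5.79, SE 0.65, adjusted p = 6.45e-05). Ccl8, in the mouse a ligand of CCR8, had 1 read over the cortex libraries and 61.4, 53.7 and 8.46 CPM in control tumours. Its ratio of control to cortex reads, scaled to depth, was 931 (95% interval 167 to 36801) by counting error, and it was called (adjusted p = 3.79e-05). These 4 genes lie within the block of chromosome 11 that runs from Ccl2 to Ccl8 (82035571 to 82116799), which also holds Ccl11, an eosinophil chemoattractant that reached 1.17 ± 0.437 CPM in control tumours and was not tested.

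A further block of chromosome 11 holds more inflammatory ligands. Ccl5 (chromosome 11, 83525778 to 83530518, minus strand), which draws T cells and monocytes, had 2 reads over the cortex libraries and 28.1, 35.2 and 8.30 CPM in control tumours. The ratio was 264 (95% interval 72.9 to 2189), and it was called (adjusted p = 2.37e-05). Ccl3 and Ccl4, the macrophage inflammatory proteins, had 3 and 2 cortex reads. In control tumours Ccl3 stood at 7.31, 6.93 and 6.22 CPM and Ccl4 at 8.68, 9.25 and 4.15 CPM, both steadier over the libraries than Ccl5. Both were called, with ratios of 47.3 (95% interval 15.9 to 232) for Ccl3 and 79.7 (95% interval 21.8 to 663) for Ccl4. Ccl6 and Ccl9, CCR1 ligands of myeloid cells, were not silent in cortex. Ccl6 stood at 5.91, 2.18 and 3.62 CPM in cortex against 67.3, 19.6 and 12.6 in control tumours, and its replicate 1 stood apart from the other control libraries (log2 fold change 2.61, SE 0.60, adjusted p = 0.00412). Ccl9 stood at 3.90, 2.85 and 3.90 CPM over the cortex libraries and 50.3, 18.7 and 18.5 in the control libraries, again with replicate 1 highest and no overlap (log2 fold change 2.67, SE 0.39, adjusted p = 0.000299).

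The receptors Ccr1 and Ccr2 were higher as well, and both are among the 20 members that passed the filter only through the tumour libraries. Ccr1 (chromosome 9, 123962124 to 123968692, minus strand), a receptor of monocytes and neutrophils, stood at 0.134, 0.503 and 0.557 CPM (cortex) and 50.7, 43.9 and 32.6 CPM (control tumours). The gap was far larger than the spread within either group (log2 fold change 6.29, SE 0.43, adjusted p = 4.12e-06). Ccr2 (chromosome 9, 124101950 to 124113557, plus strand), the receptor that brings monocytes out of the bone marrow, stood at 0.269, 0.335 and 0.139 CPM in cortex against 26.9, 47.3 and 7.18 in control tumours, with replicate 3 lowest (log2 fold change 5.71, SE 0.67, adjusted p = 8.11e-05). Among low CC receptors, Ccr7, the receptor of Ccl19 on dendritic cells and T cells, had 0.193 ± 0.0754 CPM in cortex against 1.86 ± 1.22 in control tumours. Ccr6 was the one CC receptor with a mean above 1 CPM in cortex and under it in each tumour group, at 1.75, 1.34 and 1.39 CPM across cortex and 0.529, 0.330 and 0 in the control libraries, and it did not pass the filter.

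Ligands of CXCR3, the receptor of activated T cells and NK cells, are induced by interferon, and all 3 were nearly silent in cortex. Cxcl10 (chromosome 5, 92346638 to 92348889, minus strand) stood at 0.403, 0 and 1.11 CPM (cortex) and 108, 163 and 34.5 CPM (control tumours) (log2 fold change 7.48, SE 0.86, adjusted p = 7.64e-05). Cxcl9 (chromosome 5, 92321347 to 92328079, minus strand) had 2 cortex reads and 102, 180.0 and 5.27 CPM in control tumours. Control replicates 1 and 2 were high and replicate 3 was low, but still above cortex, and the ratio over the groups was 1092 (95% interval 302 to 9018) (adjusted p = 0.000422). Cxcl11 had 3 cortex reads and 31.8, 63.2 and 4.95 CPM, with the same order of libraries and a ratio of 251 (95% interval 85.4 to 1217) (adjusted p = 0.000276). Its exons share 40.4% of their 50-base stretches with other annotated genes, so its counts are uncertain. The annotation lists Cxcl11 as a polymorphic pseudogene, and the labels name no strain. Whether its RNA encodes a working ligand here was not tested. The receptor Cxcr3 itself was low, at 0.134, 0 and 0 CPM in cortex against 1.69, 1.76 and 0.638 in control tumours, and was not tested in this comparison. In control replicate 3 the NK cell markers summed to 2.07 CPM against 14.2 and 17.5 in the other two, and the T cell markers to 7.02 against 21 and 30.1. The part of these cells in the order of the libraries was not tested.

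Ligands of CXCR2, the receptor that draws neutrophils, lie side by side on chromosome 5. Cxcl1 (chromosome 5, 90891241 to 90893115, plus strand) had 1 read over the cortex libraries and 10.4, 7.15 and 2.39 CPM in control tumours, a ratio of 148 (95% interval 26.2 to 5871) (adjusted p = 0.000178). Cxcl2 (chromosome 5, 90903871 to 90905938, plus strand) had 0 cortex reads and 11.1, 23.7 and 2.71 CPM in control tumours, at least 93.3-fold higher when cortex is set at 3 reads over the group (adjusted p = 0.000113). Cxcl3 (chromosome 5, 90786103 to 90789600, plus strand) had 0 cortex reads and 9.74, 4.07 and 2.39 CPM in control tumours, at least 39.9-fold higher on the same basis (adjusted p = 7.35e-05). In each of the 3 genes control replicate 3 was the lowest control library. Cxcl15 (chromosome 5, 90794534 to 90803067, plus strand), a mouse ligand known from lung epithelium, had 0 cortex reads and 62.2, 26.4 and 4.15 CPM in control tumours, at least 236-fold higher (adjusted p = 0.000109). Cxcl5, a further CXCR2 ligand, stood at 0.134, 0.839 and 0.835 CPM over the cortex libraries and 3.28, 4.40 and 6.06 in the control libraries (log2 fold change 2.72, SE 0.58, adjusted p = 0.00285). Cxcr2 had 0 reads in cortex and 1.69, 1.10 and 0.479 CPM in control tumours, too low to test there.

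**Figure D3:**
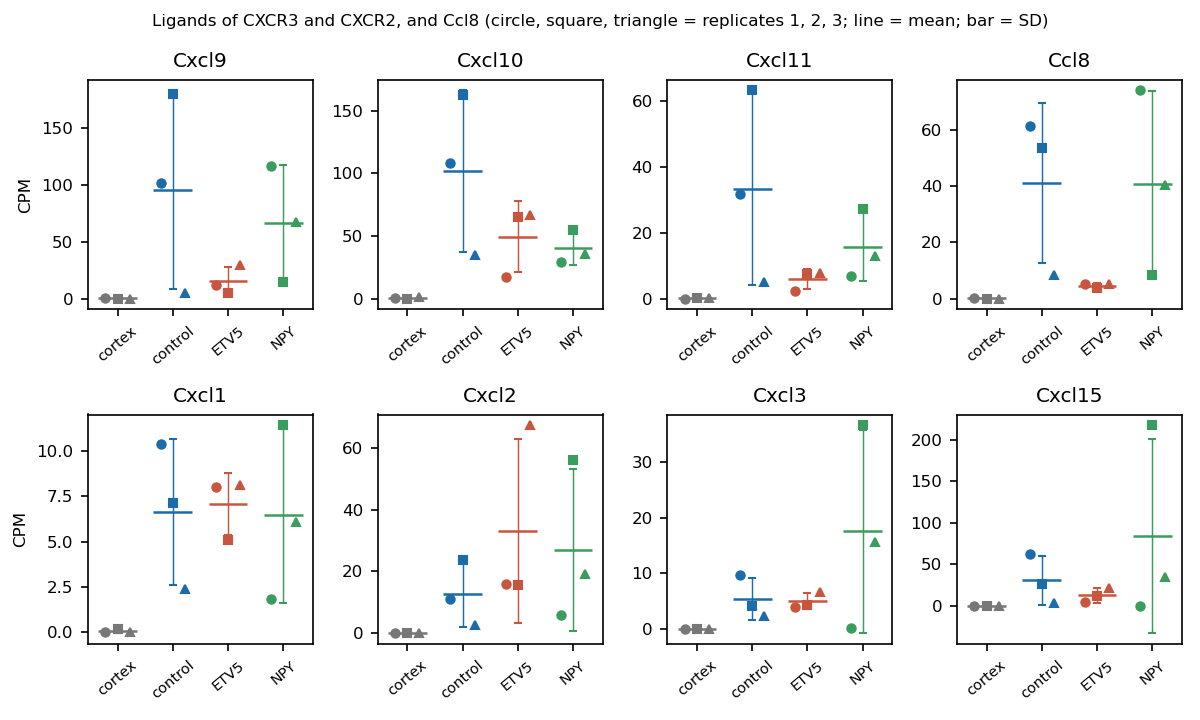
CPM (vertical axis, linear, a separate scale per gene) in each library of the 4 groups for the CXCR3 ligands Cxcl9, Cxcl10 and Cxcl11, for Ccl8, and for Cxcl1, Cxcl2, Cxcl3 and Cxcl15; circle, square and triangle are replicates 1, 2 and 3, lines are means and bars are SD. Control replicate 3 is low for the CXCR3 ligands and Ccl8, the ETV5 libraries are all under 6 CPM for Ccl8, and NPY replicate 2 is highest of all libraries for Cxcl1, Cxcl3 and Cxcl15.

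The promoters of 4 of these ligands are shown because they hold matches to the kappaB consensus, the DNA motif bound by dimers that contain RELA, the partner of ZFTA in the fusion protein. The 250 bases before each gene's start are given from RefSeq (GRCm38.p6), 5′ to 3′ on the gene's strand, with matches in capitals: the kappaB consensus, and in Cxcl10 also a core of interferon response elements, which was searched as GAAA, any 2 bases and GAAA again. Both motifs were searched on both strands, and they do not overlap in Cxcl10. Cxcl1 is chr5:90890995-90891244 (plus strand), Cxcl2 is chr5:90903649-90903898 (plus), Cxcl3 is chr5:90785851-90786100 (plus) and Cxcl10 is chr5:92348890-92349139 (minus).
Cxcl1: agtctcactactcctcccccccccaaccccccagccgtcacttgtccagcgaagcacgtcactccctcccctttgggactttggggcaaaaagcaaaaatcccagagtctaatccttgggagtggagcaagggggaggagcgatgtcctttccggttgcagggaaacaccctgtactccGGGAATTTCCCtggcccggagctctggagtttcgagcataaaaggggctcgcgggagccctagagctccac
Cxcl2: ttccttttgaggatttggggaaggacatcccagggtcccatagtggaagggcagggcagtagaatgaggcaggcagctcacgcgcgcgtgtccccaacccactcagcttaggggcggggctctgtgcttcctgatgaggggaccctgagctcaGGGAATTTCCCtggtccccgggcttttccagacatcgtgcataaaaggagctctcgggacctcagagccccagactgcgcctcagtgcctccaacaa
Cxcl3: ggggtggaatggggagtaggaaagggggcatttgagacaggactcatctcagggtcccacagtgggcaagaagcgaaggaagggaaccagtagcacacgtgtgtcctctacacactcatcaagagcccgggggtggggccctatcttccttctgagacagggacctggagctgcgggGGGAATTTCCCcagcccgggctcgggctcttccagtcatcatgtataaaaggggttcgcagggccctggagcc
Cxcl10: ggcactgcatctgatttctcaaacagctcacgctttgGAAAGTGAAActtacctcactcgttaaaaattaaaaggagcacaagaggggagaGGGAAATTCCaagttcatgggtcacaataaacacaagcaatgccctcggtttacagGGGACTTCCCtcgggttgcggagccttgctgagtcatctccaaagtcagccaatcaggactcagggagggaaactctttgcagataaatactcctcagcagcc
Cxcl1, Cxcl2 and Cxcl3 hold the same 11 bases, which are a pair of overlapping kappaB matches and begin 71, 97 and 73 bases before the start. Cxcl10 holds GAAAGTGAAA 213 bases before its start and kappaB matches at 159 and 103 bases. Of the 61 members 45 had a promoter in the table, of 300 bases each (250 before to 50 after the start). The kappaB consensus occurred in 10 of these 45 members, or 19.2% of their 52 promoters, and in 4.51% of all 32851 promoters. By call in control tumours against cortex, it occurred in 5 of 18 matched members that were higher, 1 of 5 lower, 1 of 4 not called and 3 of 18 not tested. The interferon response core occurred in 3 members (Ccl19, Cxcl10 and Cxcl14) and in 3.44% of all promoters. The motifs and the 4 genes were chosen after values were seen, and a match is a match of letters, not a measured binding site.

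Cxcl13 had the highest level per length of the CXC ligands in control tumours. This chemokine of B cell follicles (chromosome 5, 95956951 to 95961068, plus strand) had 1 read over the cortex libraries and 469.7, 221 and 81.2 CPM in control tumours. The control libraries differed several-fold among themselves, and the ratio over the groups was 5772 (95% interval 1036 to 228026) (adjusted p = 2.62e-06). Its receptor Cxcr5 stood at 0.672, 0.335 and 0.278 CPM (cortex) and 2.44, 1.32 and 2.23 CPM (control tumours) and was not tested. B cell markers, of which 4 of 5 were in the tables (Ighm was not), summed to 1.21, 1.34 and 1.53 CPM in cortex and 16.1, 20.6 and 108 in control tumours, with the highest sum in control replicate 3, where Cxcl13 was lowest. Cxcl16 (chromosome 11, 70453983 to 70459984, minus strand), a membrane-bound ligand of CXCR6, stood at 1.88, 3.52 and 2.37 CPM in cortex against 166, 156 and 67.7 in control tumours without overlap (log2 fold change 5.35, SE 0.39, adjusted p = 5.69e-06). Its exons overlap those of Zmynd15 on the opposite strand by 552 bases. The library kit marks strand, but whether counting used it is not given in the sources used here, so reads of the 2 genes in that overlap cannot be told apart. Zmynd15 was itself higher (0.134, 0 and 0.278 CPM across cortex and 15.5, 16.5 and 4.79 in the control libraries). Zmynd15 passed the filter only through the tumour libraries. Cxcr6 had 0 reads in cortex and 2.01, 4.73 and 1.28 CPM in control tumours.

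The axis of Cxcl12, the ligand that guides migrating neural and blood progenitors, differed at its receptors and not detectably at its ligand. Cxcl12 (chromosome 6, 117168535 to 117181367, plus strand) stood at 55.7, 55 and 41.1 CPM (cortex) and 60.5, 40.5 and 23.8 CPM (control tumours). The groups overlapped, and it was not called (log2 fold change -0.54, SE 0.32, adjusted p = 0.158), though it was called lower without control replicate 1 (log2 fold change -0.86, adjusted p = 0.0208). Cxcr4 (chromosome 1, 128588199 to 128592293, minus strand), the signalling receptor of Cxcl12, stood at 4.84, 2.18 and 3.76 CPM in cortex against 29.3, 26.1 and 22.2 in control tumours (log2 fold change 2.70, SE 0.29, adjusted p = 5.54e-05). Ackr3 (chromosome 1, 90203980 to 90216751, plus strand), which takes up Cxcl12 without G protein signalling, stood at 17.2, 12.4 and 13.5 CPM over the cortex libraries and 198, 96.9 and 103 in the control libraries (log2 fold change 2.96, SE 0.27, adjusted p = 1.85e-05). Both receptors were higher in every control library than in any cortex library.

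Of the 5 members that were lower in control tumours, 4 are ligands and the fifth, Ackr1, is described with the NPY tumours. Cx3cl1 (chromosome 8, 94772009 to 94782427, plus strand) stood at 733, 928 and 915 CPM (cortex) and 463, 477 and 214 CPM (control tumours), with replicate 3 lowest (log2 fold change -1.41, SE 0.31, adjusted p = 0.00302). The drop was 2.66-fold, and the gene was among the 3 ligands with the highest level per length in the tumours. Its receptor Cx3cr1, which falls outside the name pattern, went the other way, at 85.7, 92.2 and 82.7 CPM in cortex against 422, 320.2 and 265 in control tumours (log2 fold change 1.75, SE 0.18, adjusted p = 3.54e-05). Ccl27a (chromosome 4, 41769467 to 41774247, minus strand), a ligand of CCR10, stood at 104, 138 and 101 CPM across cortex and 7.94, 11.2 and 16.8 in the control libraries (log2 fold change -3.47, SE 0.26, adjusted p = 6.6e-06). Ccl19 (chromosome 4, 42754525 to 42756577, minus strand), the ligand of CCR7, stood at 40.03, 58.2 and 39 CPM (cortex) and 3.71, 6.49 and 3.83 CPM (control tumours) (log2 fold change -3.45, SE 0.29, adjusted p = 1.14e-05). Ccl27a was 11.1-fold and Ccl19 10.9-fold lower, both without overlap. Of their 50-base stretches, 45.0% in Ccl27a and 52.0% in Ccl19 also occur in other annotated genes, so how reads were split among copies is uncertain. Ccl25 (chromosome 8, 4325210 to 4360020, plus strand), a ligand of CCR9 known from thymus and gut, was lower at a low level, from 4.13 ± 0.751 to 1.72 ± 0.166 CPM (log2 fold change -1.36, SE 0.30, adjusted p = 0.00357).

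The 4 tested members that were not called were Cxcl14, Cxcl12, Ccl17 and Ackr2. Cxcl14 (chromosome 13, 56288643 to 56296551, minus strand), a homeostatic ligand of epithelia and some neurons, stood at 94, 121 and 107 CPM in cortex against 82.7, 109.9 and 73.4 in control tumours, which overlapped (log2 fold change -0.46, SE 0.19, adjusted p = 0.0535). It was called lower without control replicate 2 (log2 fold change -0.65, adjusted p = 0.00874) and without cortex replicate 1 (-0.57, adjusted p = 0.0496). Ccl17, a ligand of CCR4 made by dendritic cells, stood at 2.55, 2.35 and 1.53 CPM over the cortex libraries and 3.81, 7.60 and 3.35 in the control libraries, and missed the threshold with no overlap (log2 fold change 0.92, SE 0.41, adjusted p = 0.0713). It passed without control replicate 3 (log2 fold change 1.17, adjusted p = 0.0333). Ackr2, a scavenger of inflammatory CC chemokines, stood at 2.28, 3.35 and 3.62 CPM (cortex) and 2.12, 4.73 and 7.02 CPM (control tumours) (log2 fold change 0.27, SE 0.45, adjusted p = 0.605), with the sign turned without control replicate 3 (-0.08). Ackr4, which scavenges Ccl19, Ccl21 and Ccl25, was higher, at 0.672, 0.839 and 0.278 CPM in cortex against 14.4, 2.97 and 3.99 in control tumours (log2 fold change 2.92, SE 0.63, adjusted p = 0.00307). Ccl28, a mucosal ligand of CCR10, was higher too, at 1.75, 0.168 and 0.418 CPM across cortex and 6.78, 5.94 and 7.98 in the control libraries (log2 fold change 3.23, SE 0.63, adjusted p = 0.00165).

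Genes that carry the signal of chemokine receptors were read from a list of 24, of which 23 were tested. In control tumours 14 were higher than in cortex and 7 were lower, beside 35.7% higher and 36.2% lower of all genes tested. The median log2 fold change of the list was 1.66, against -0.00 over all genes. The higher ones include the leukocyte form Rac2, a GTPase of the cytoskeleton (log2 fold change 4.28, SE 0.17, adjusted p = 6.88e-07). Plcb3, a phospholipase C that is not confined to leukocytes, was also higher, at 22.3 ± 1.34 CPM in cortex against 323 ± 25 in control tumours (log2 fold change 3.68, SE 0.12, adjusted p = 3.42e-07). Among the lower ones were Gng2, a G protein gamma subunit (log2 fold change -2.47, SE 0.12, adjusted p = 1.18e-06), and Arrb1, a beta-arrestin that turns receptors off (log2 fold change -1.88, SE 0.17, adjusted p = 2.01e-05). Of 8 chemokine system genes that the name pattern misses, 7 were tested, and Cx3cr1, Ccrl2 (a non-signalling receptor) and Cmklr1 (the chemerin receptor) were higher and none was lower. Ccrl2 (0.940, 1.17 and 1.11 CPM in cortex) passed the filter only through the tumour libraries and so had to differ.

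ETV5 tumours were then set against control tumours to ask what overexpression of ETV5 adds, and 0 of 40 tested members were called by limma. The share of all genes called was 0% (0 of 14382). At an unadjusted p under 0.05 there were 6 members (Ackr1, Ccl8, Ccr1, Cxcl5, Cxcl12 and Cxcr6) and 944 genes in all. EdgeR called 0 members and 0% of all genes, and DESeq2 called 1 member, Ccl8, and 0.521% of all genes. By sign, 30 members were lower and 10 higher, with a median log2 fold change of -0.29 against -0.02 over all genes. In 4 members (Ccl8, Cxcl5, Cxcl12 and Cxcr6) the groups did not overlap, each time with ETV5 lower, against 14.2% of all genes not overlapping in either direction and 7.08% with ETV5 lower. The ETV5 and NPY comparisons use the same control libraries, so their effects are not independent.

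Ccl8 had the lowest p of the members in this comparison. It stood at 61.4, 53.7 and 8.46 CPM in control tumours against 5.25, 3.59 and 5.05 with ETV5. All ETV5 libraries lay below control replicate 3, the lowest control library (log2 fold change -2.71, SE 0.77, adjusted p = 0.732 by limma; adjusted p = 0.00278 by DESeq2). Without each library in turn limma gave log2 fold changes between -3.65 and -2.20 and no call. Cxcl12 stood at 60.5, 40.5 and 23.8 CPM in control tumours against 8.14, 9.12 and 23.2 with ETV5, where replicate 3 came close to the lowest control library (log2 fold change -1.69, SE 0.53, adjusted p = 0.732). Cxcl5 stood at 2.23, 0.747 and 0.354 CPM in ETV5 tumours, below each control library (log2 fold change -2.20, SE 0.64, adjusted p = 0.732). Cxcr6, at 0.656, 0.747 and 0.443 CPM, was likewise below each control library but rests on 5 reads per ETV5 library (log2 fold change -1.74, SE 0.61, adjusted p = 0.732). Ccr1 (22.7, 19 and 34.3 CPM; log2 fold change -0.77, SE 0.30, adjusted p = 0.732) and Ackr1 (4.20, 12.6 and 5.76 CPM; log2 fold change -1.26, SE 0.46, adjusted p = 0.732) overlapped the control libraries.

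Other inflammatory ligands overlapped the control libraries. Cxcl9, at 12.2, 5.23 and 29.1 CPM, and Cxcl11, at 2.36, 7.32 and 7.88 CPM, both overlapped control replicate 3. Neither was called (log2 fold change -1.90, SE 1.37, adjusted p = 0.775 for Cxcl9 and log2 fold change -2.05, SE 0.99, adjusted p = 0.732 for Cxcl11). Cxcl10 stood at 16.8, 64.9 and 66.3 CPM and Cxcl13 at 45.3, 156 and 159 CPM, also within the control range or overlapping it. Cxcl2 had the largest positive log2 fold change of the members, at 15.9, 15.7 and 67.4 CPM with ETV5 replicate 3 far above the rest (log2 fold change 1.48, SE 0.93, adjusted p = 0.744). The monocyte ligands Ccl12 (46.2, 89.97 and 111 CPM) and Ccl2 (33.2, 41.7 and 45.1 CPM) stood within or near the control range, with log2 fold changes of 0.10 (SE 0.43) and -0.02 (SE 0.56). Macrophage markers summed to 1619.7, 2844 and 3277 CPM in ETV5 tumours, T cell markers to 2.62, 7.02 and 7.79 and NK cell markers to 3.28, 5.53 and 2.48. None of their tested members was called. By sign, 11 of the 12 macrophage markers had a negative log2 fold change and 1 a positive one (median -0.89). Neutrophil markers differed in sign: S100a9 stood at 2.97, 3.74 and 0.798 CPM in control tumours against 6.69, 21.2 and 26.6 with ETV5 (log2 fold change 2.80, SE 0.76, adjusted p = 0.732), and Csf3r at 14.2, 38.3 and 36.8 CPM with ETV5 (log2 fold change -1.0, SE 0.47), neither called.

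NPY tumours were set against control tumours to ask what overexpression of NPY adds, and 1 of 42 tested members was called, Ackr1, which was lower. Of all 14425 genes tested 5.04% were called and 4.31% were called lower (105 genes higher and 622 lower), so 1 of 42 is no more than the share over all genes. At an unadjusted p under 0.05 there were 2 members, Ackr1 and Ccl19, and 3389 genes in all. Ackr1 and Ccl19 were also the 2 members whose groups did not overlap, both with NPY lower. Of all genes 29.6% did not overlap in either direction and 18.4% with NPY lower. EdgeR called Ackr1 and 5.01% of all genes, and DESeq2 called Ackr1 and Ccl19 and 12.7% of all genes. By sign 22 members were higher and 20 lower, and the median log2 fold change was 0.04 over the members and over all genes. With the library code prefix as a term the members' median was -0.66, and without control replicate 3 it was -0.61.

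Ackr1 (chromosome 1, 173331886 to 173333750, minus strand), the Duffy antigen receptor of venules and red cells that binds many inflammatory chemokines, stood at 32.2, 31.7 and 31.7 CPM across cortex, 17.6, 20.03 and 12 in the control tumours, 4.20, 12.6 and 5.76 with ETV5 and 3.04, 4.87 and 4.48 with NPY. Each NPY library was below each control library, and each control library was below each cortex library. NPY tumours were 3.69-fold lower than control tumours (log2 fold change -1.88, SE 0.32, adjusted p = 0.028), and control tumours were 2.22-fold lower than cortex (log2 fold change -1.15, SE 0.22, adjusted p = 0.00135). The NPY call was lost without any of 5 of the 6 libraries: limma called it without NPY replicate 2 (adjusted p = 0.0366) and not without NPY replicate 1 (log2 fold change -1.68, adjusted p = 0.0849), NPY replicate 3 (-1.95, 0.0533), control replicate 1 (-1.82, 0.104), control replicate 2 (-1.71, 0.109) or control replicate 3 (-2.11, 0.0709). With the library code prefix as a term in a fit that also holds the ETV5 libraries it was not called (-1.59, adjusted p = 0.584). That fit separates the prefix from NPY only through ETV5 replicate 3. In NPY and control libraries alone the prefix and the group cannot be told apart.

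The counts at Ackr1 touch a neighbour. Its exons share 361 bases with Cadm3, a neuronal cell adhesion gene on the same strand, and 20.4% of its 50-base stretches occur in Cadm3. Cadm3 stood at 380.4, 372 and 385 CPM across cortex, 139, 108 and 141 in the control tumours, 107, 127 and 112 with ETV5 and 68, 92.6 and 82.9 with NPY. It was called lower in control tumours (log2 fold change -1.74, SE 0.11, adjusted p = 3.66e-06) and not in NPY tumours (log2 fold change -0.59, SE 0.17, adjusted p = 0.107). The 7 neuronal markers summed to 304, 334 and 837 CPM in control tumours and 29.6, 26.1 and 33.3 in NPY tumours, with 6 called lower. The 6 endothelial markers summed to 98.1, 81.7 and 66.8 CPM across cortex, 279, 385 and 369.9 in control tumours and 146, 122 and 388 in NPY tumours. All 6 were higher in control tumours than in cortex. Between NPY and control tumours 0 of 6 were called, but all 6 had a negative log2 fold change (median -0.80). The same held for ETV5 against control tumours (6 of 6 negative, median -0.63, 0 called). Of 5 erythroid markers the 4 globin genes were listed at 0 in all 12 libraries, and Alas2, at 0.847, 1.10 and 1.91 CPM in control tumours and 4.74, 7.06 and 20.03 in NPY tumours, was higher in NPY tumours. The part of these cells and of Cadm3 reads in the Ackr1 result was not tested.

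**Figure D4:**
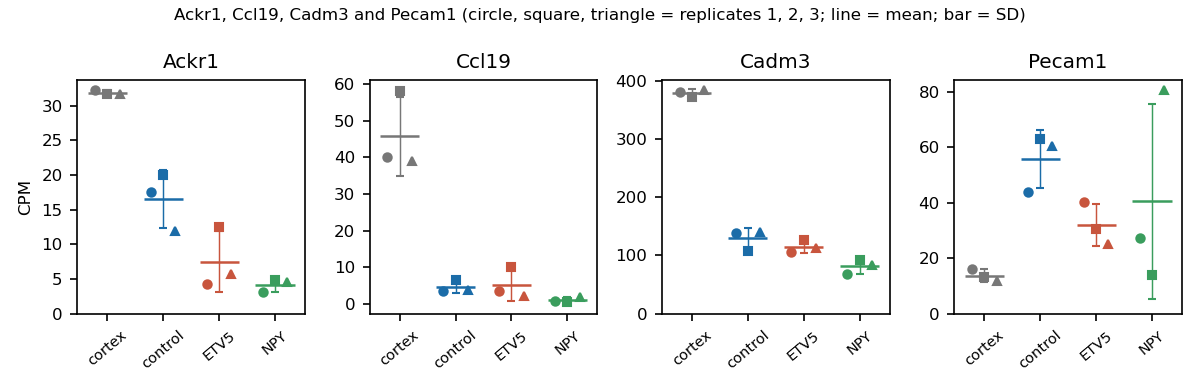
CPM (vertical axis, linear, a separate scale per gene) in each library of the 4 groups for Ackr1, Ccl19, Cadm3 (whose exons overlap Ackr1) and Pecam1 (an endothelial marker); circle, square and triangle are replicates 1, 2 and 3, lines are means and bars are SD. Ackr1 steps down from cortex (31.9) to control (16.5) to NPY tumours (4.13). Pecam1 is higher in each tumour group mean than in cortex, but NPY replicate 2 (14 CPM) lies within the cortex range (11.7 to 16.1).

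Ccl19 stood at 3.71, 6.49 and 3.83 CPM in control tumours and 0.850, 0.487 and 1.91 in NPY tumours. The NPY libraries held 7, 4 and 20 reads and lay below each control library, but limma did not call the difference (log2 fold change -2.05, SE 0.54, adjusted p = 0.0808), while DESeq2 did (adjusted p = 0.0233). Its receptor Ccr7 stood at 1.59, 3.19 and 0.798 CPM in control tumours and at 1.70, 1.70 and 1.14 in NPY tumours (log2 fold change -0.02, SE 0.57, adjusted p = 0.984). The members with the highest levels per length were not called. Ccl12 stood at 48.1, 89 and 80.5 CPM in NPY tumours (log2 fold change 0.05, SE 0.36, adjusted p = 0.948). Ccl2 stood at 35.1, 38 and 39.5 CPM, a narrow range inside that of the control libraries (log2 fold change -0.01, SE 0.53, adjusted p = 0.994). Cxcl13 (78.1, 588 and 83 CPM; log2 fold change -0.30, SE 0.95, adjusted p = 0.885) and Ackr3 (162, 321 and 128 CPM; log2 fold change 0.67, SE 0.42, adjusted p = 0.387) were both highest in NPY replicate 2. Of the receptor signalling list 1 of 23 tested genes was called, no more than the share of 5.04% over all genes. It was Rgs1, a regulator of G protein signalling in leukocytes. Rgs1 was higher in NPY tumours, at 10.2, 20.9 and 27.9 CPM against 3.92, 4.40 and 2.71 in control tumours (log2 fold change 2.38, SE 0.42, adjusted p = 0.0313 by limma). With the library code prefix as a term 0 of all genes were called, so Rgs1 was not. Without single libraries 1 to 571 of all genes were called. In ETV5 tumours Rgs1 stood at 17.8, 10.5 and 19 CPM (log2 fold change 2.03, SE 0.37, adjusted p = 0.732).

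ETV5 and NPY tumours were compared on reads scaled anew over the 9 tumour libraries, and limma called 0 of 40 tested members. The share over all 14023 genes was 0% as well, with 831 genes and 8 members at an unadjusted p under 0.05 (Ccl6, Ccl8, Ccl9, Ccl19, Ccr1, Cxcl12, Cxcl16 and Cxcr6). EdgeR called 0 members and DESeq2 called 1, Ccl8, lower in ETV5 tumours (adjusted p = 0.00475), beside 0.399% of all genes. The groups did not overlap for Ccl19, higher in ETV5 tumours, and for Ccl6, Ccl8, Ccl22, Ccr1 and Cxcr6, lower, which is 6 of 40 against 12.5% of all genes (7.47% with ETV5 higher and 4.98% with ETV5 lower). Ccl8 stood at 5.25, 3.59 and 5.05 CPM in ETV5 tumours and 74.2, 8.28 and 40.5 in NPY tumours (log2 fold change -2.71, SE 0.77, adjusted p = 0.794). NPY replicate 2 was close to the ETV5 libraries and the other two were far above. Ccr1 stood at 22.7, 19 and 34.3 CPM in ETV5 tumours and at 38.3, 75.5 and 46.7 in NPY tumours, a narrow gap between the groups (log2 fold change -1.12, SE 0.35, adjusted p = 0.794). Its ligand Ccl9 stood at 14.8, 16.7 and 28.8 CPM in the former and 27.6, 68.2 and 55.5 in the latter (log2 fold change -1.34, SE 0.42, adjusted p = 0.794). Ccl6, also a CCR1 ligand, stood at 15.2, 26.6 and 31.6 and then 32.2, 46.1 and 84 CPM (log2 fold change -1.15, SE 0.42, adjusted p = 0.794), with the highest ETV5 library just below the lowest NPY library. The median log2 fold change was -0.37 over the members and -0.02 over all genes, and the members' median turned to 0.26 with the library code prefix as a term. All 12 microglia and macrophage markers had a negative log2 fold change (median -0.65), with 0 called. T cell sums were 2.62, 7.02 and 7.79 CPM with ETV5 against 16.2, 25.4 and 23.9 with NPY. NK cell sums were 3.28, 5.53 and 2.48 against 5.95, 9.01 and 6.11, and neither sum overlapped. Single markers were mixed. Cd4 (0.525, 1.64 and 1.42 against 4.13, 18 and 7.06 CPM), Cd3g, Cd2 and Nkg7 did not overlap. Cd3d, Cd3e, Cd8a, Cd8b1, Lck, Ncr1, Klrb1c, Prf1 and Gzma did. The part of these cells in the members' values was not tested.

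Other members at 5 CPM or more were called in neither ETV5 nor NPY tumours against the control group. Cx3cl1 stood at 337, 103 and 381 CPM in ETV5 tumours, where replicate 2 was the lowest tumour library, and at 232, 533 and 198 in NPY tumours, where replicate 2 was the highest. Its log2 fold changes were -0.62 (SE 0.58) and -0.23 (SE 0.48). Cxcl14 had a low library in each group, at 25.2, 205 and 109 CPM with ETV5 and 20.8, 110.4 and 64.8 with NPY, the low one being replicate 1 both times. Cxcl16 stood at 61.8, 64.7 and 89.98 CPM with ETV5, all below control replicates 1 and 2, and at 88.9, 204 and 122 with NPY (-0.77, SE 0.40, and 0.20, SE 0.45). Cxcl12 stood at 26.7, 32.7 and 22.5 CPM with NPY (-0.44, SE 0.36), within the lower part of the control range and just below it. Its receptors were Cxcr4, at 27.8, 13.5 and 24.3 and 16.3, 41.4 and 39.9 CPM, and Ackr3, at 120.3, 70.4 and 186 CPM with ETV5, all overlapping the control libraries. Ccr2 stood at 11.5, 5.08 and 24.3 CPM with ETV5 and 18.6, 25.9 and 21.6 with NPY, with log2 fold changes of -0.90 (SE 0.84) and 0.14 (SE 0.66).

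Among the inflammatory CC ligands, Ccl5 stood at 5.12, 10.6 and 16.9 CPM with ETV5 and 8.99, 11.8 and 7.73 with NPY. Most of these 6 libraries lay near control replicate 3 and below the other two control libraries, and the log2 fold changes were -1.05 (SE 0.69) and -1.02 (SE 0.56). Ccl3 (4.07, 7.32 and 14.2 and 4.98, 9.25 and 10.02 CPM) and Ccl4 (4.33, 4.18 and 17.6 and 9.11, 7.79 and 8.97 CPM) were highest in ETV5 replicate 3. Ccl7 stood at 12.2, 13.5 and 28.9 CPM with ETV5 and 23.6, 19.2 and 27.4 with NPY, all inside the control range. Ccl17 reached 9.97, 2.84 and 11.8 and 5.46, 17.7 and 9.35 CPM, overlapping the control libraries, and Ccl8 with NPY spanned 74.2, 8.28 and 40.5 CPM. The CXCR3 ligands with NPY were Cxcl9 at 117, 14.4 and 67.6, Cxcl10 at 29.4, 54.9 and 35.9 and Cxcl11 at 6.92, 27.3 and 13 CPM, and their library orders differed: Cxcl9 was lowest in replicate 2, where Cxcl10 and Cxcl11 were highest. Cxcr3 stood at 0.394, 0.448 and 0.266 CPM with ETV5 and 0.850, 1.83 and 1.24 with NPY.

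The neutrophil ligands Cxcl1, Cxcl2, Cxcl3 and Cxcl15 were lowest in replicate 1 and highest in replicate 2 of the NPY group, whereas Cxcl5 was lowest in replicate 2 (1.46, 0.122 and 6.87 CPM). Cxcl1 stood there at 1.82, 11.4 and 6.11, Cxcl2 at 5.71, 56.1 and 19 and Cxcl3 at 0.243, 36.8 and 15.7 CPM. With ETV5 the range was narrower for Cxcl1 (8, 5.08 and 8.15 CPM) and Cxcl3 (3.94, 4.33 and 6.64 CPM), and Cxcl15 stood at 4.33, 11.7 and 22 CPM. Ccl27a stood at 5.38, 10.01 and 6.73 CPM with ETV5 and 6.31, 2.19 and 8.97 with NPY, all but 1 library below 10 CPM (-0.68, SE 0.38, and -1.09, SE 0.55). Ccl28 stood at 3.81, 4.78 and 24.2 CPM with ETV5, where replicate 3 stood apart, and at 7.77, 26.3 and 0.572 with NPY, where it ran from 6 reads to its highest level. Ackr4 stood at 3.41, 3.14 and 9.12 and 2.06, 15.7 and 1.24 CPM, with 1 high library in each group, as among the control tumours.

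**Figure D5:**
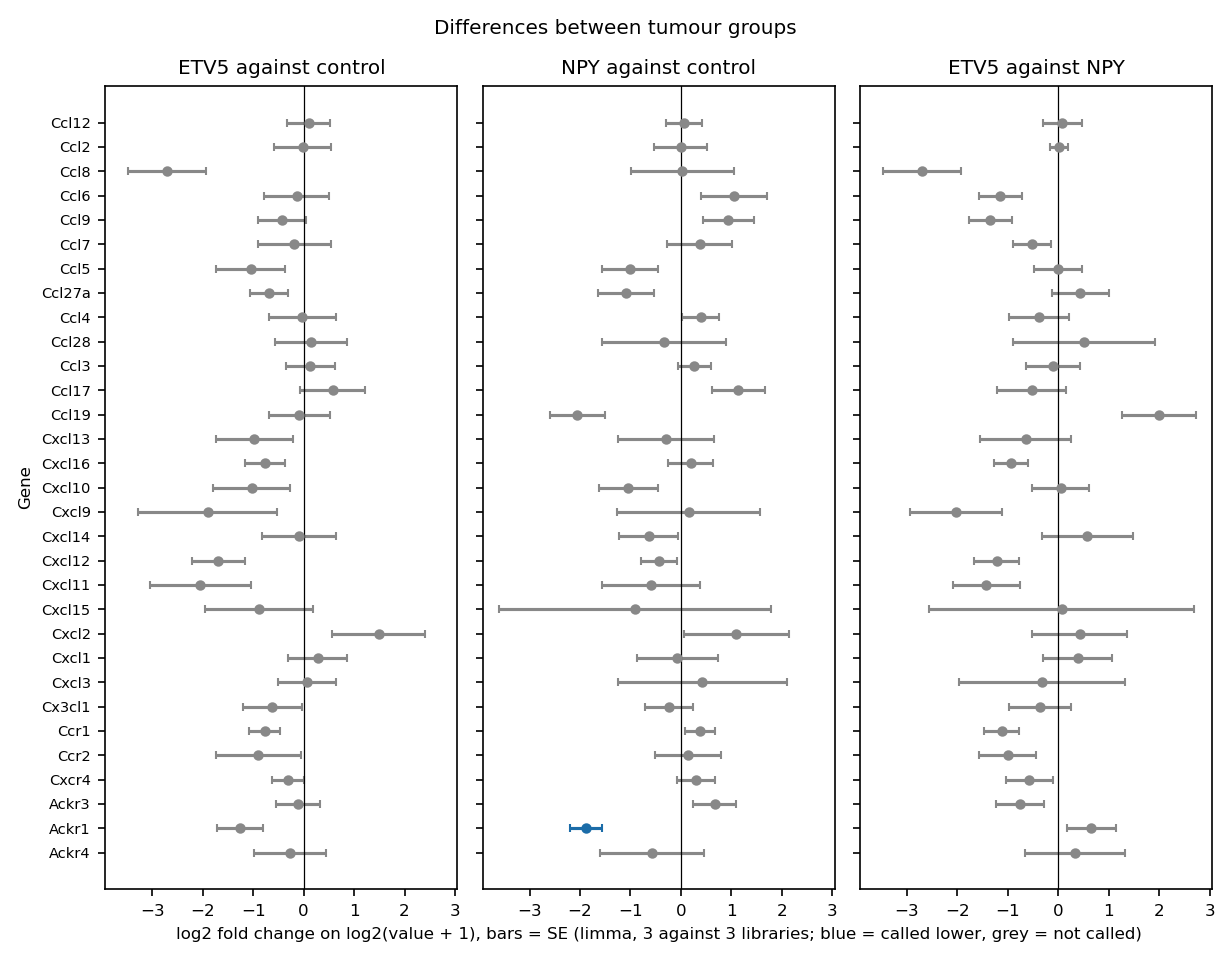
Log2 fold change on log2(value + 1) (horizontal axis, bars are SE) for 31 of the 32 members with at least 5 CPM in a group (vertical axis), for ETV5 against control, NPY against control and ETV5 against NPY tumours, each with 3 against 3 libraries. Ackr1 in NPY against control tumours (-1.88) is the one called value, in blue; Ccl8 lies at -2.71 in both ETV5 panels and is not called.

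Over the 9 tumour libraries taken across groups, the highest library exceeded the lowest by 2.43-fold for Ccl12, the steadiest of 30 members, and by 45.9-fold for Ccl28, the least steady, with a median of 6.63. For 2 further members, Cxcl3 and Cxcl15, the lowest library had 3 or fewer reads. Cxcl15 ran from 0 reads in NPY replicate 1 to 218 CPM in NPY replicate 2, and Cxcl3 from 0.243 to 36.8 CPM in the same libraries. NPY replicate 2 was the highest tumour library for 14 of the 32 members at 5 CPM or more, and ETV5 replicates 1 and 2 were the lowest for 10 and 8. Macrophage markers summed to 5209.7 CPM in NPY replicate 2, against 2694 and 3312 in the other NPY libraries, and neutrophil markers to 107 against 27.4 and 58.4. Cxcr2 followed the same order, at 0.486, 7.18 and 2.58 CPM. Xcl1, made by NK and T cells, and its receptor Xcr1, on cross-presenting dendritic cells, stayed low, at up to 1.70 ± 1.5 and 1.39 ± 0.987 CPM in control tumours, their highest group.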

How the data were processed

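PolyA RNA libraries (stranded and paired-end, per the labels' protocols) were processed with FastQC 0.11.7, MultiQC 1.6, STAR 2.5.0a and DESeq2 1.30.1 on build mm10, per the submitters' processing notes. Not given in the sources used here is what counted the reads and over which annotation. Values as deposited are a normalized signal per gene: each is a whole number of reads divided by 1 size factor per library, and 100% of values came out whole within 0.01 read. Two-group fits used limma 3.58.1 (trend and robust) on log2(value + 1), after a filter on recovered reads (about 10 reads in 3 libraries and 15 in all), in R 4.3.3. EdgeR 4.0.16 (quasi-likelihood, TMM) and DESeq2 1.42.0 on the reads were alternatives, and the code was tested on simulated data. ETV5 and NPY tumours were compared on reads rescaled by medians of ratios. Ratios on 1 to 3 reads carry exact 95% intervals (Clopper-Pearson), which, like the floor of 3 reads for a count of 0, cover counting error only. Members at 5 CPM or more in a group, members called in a comparison of tumours, and their ligands or receptors at 1 CPM or more were named with every library. Cxcl5, Ackr2, Ackr4, Ccr6, Zmynd15, Cadm3, Pecam1, Alas2, Rgs1, the members named at an unadjusted p under 0.05, the motifs and the promoters shown were chosen after values were seen. The members and all gene lists were chosen with earlier results of these data known. Annotation was GENCODE M21 and promoters came from RefSeq; protein sequences are not analysed here. A member and a signalling gene are not reported here, though they stay in the fits and counts.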

Additional observations from a re-analysis of the deposited data

How the results depend on the processing

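The 31 members called between control tumours and cortex were 31 to 42 under the other settings and 33 to 39 when each library was left out, where 36 to 43 members were tested. Their median log2 fold change of 4.76 moved with what is added to low values and with the genes tested: 5.42 by DESeq2, 5.28 by edgeR, 5.29 with 0.5 added, 2.99 with 5 added, 2.71 with no filter, and 2.93 to 3.90 without single libraries. Of 490 values of named members 482 kept their direction and side of the threshold, 7 gained a call (Ccl17, Cxcl12 and Cxcl14) and 1 turned its sign (Ackr2, -0.0767 without control replicate 3, in a range of -0.0767 to 0.732 without single libraries). For ETV5 against control tumours DESeq2 called 1 member and 75 genes, and 80 of 81 named values kept their call. For NPY against control tumours the single member called became 2 by DESeq2 and 0 with the library code prefix as a term, and 0 to 1 without single libraries. The count over all genes went from 727 to 1833 by DESeq2, 0 with the prefix and 1 to 571 without single libraries (1 without control replicate 2), and the median of the members went to -0.66 with the prefix and -0.61 to 0.31 without single libraries. For ETV5 against NPY tumours DESeq2 called 1 member and 56 genes, 1 gene was called with no filter and 1 with a spread shared over all groups, and 0 to 1 without single libraries. The median of the members turned to 0.26 with the prefix. The cause of these moves was not tested.

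Replicate numbers were not treated as pairs, since the correlations of deviations between same-numbered libraries ran from -0.41 to 0.37. With the replicate number as a block, NPY against control tumours gave 0 members and 264 genes, Ackr1 was not called (adjusted p = 0.0681, in a range of 1e-05 to 0.584 over its alternatives), and Cxcl12 (adjusted p = 0.0416) and Cxcl14 (adjusted p = 0.0211) were called lower in control tumours than in cortex, by limma. At these depths a member under about 10 reads per library was not tested, which covers 26 of the 61 members between control tumours and cortex.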
